A study of Mus musculus with 38 samples.

Results

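Distal standard SATB1 sites without CTCF are SATB1 peaks of standard ChIP-seq in mouse thymocytes. They lie away from gene starts and touch no called peak of the insulator protein CTCF. They were chosen by the peak calls of the standard SATB1 and CTCF lists, starting from the 48175 peaks of standard replicate 1. A peak was kept if it lay on chromosomes 1 to 19 or X, shared at least 1 bp with a peak of standard replicate 2, touched no CTCF peak of thymocytes or skin, and had its summit more than 1 kb from the 5′ end of every protein-coding gene (mm9, GENCODE vM1). This left 10196 sites, or 21.2% of the list.

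The study compared SATB1 binding in chromatin that had been purified in urea before immunoprecipitation (urea ChIP-seq) with binding in sonicated whole nuclei (standard ChIP-seq). The mice were C57BL/6 with wild-type Satb1. Standard replicate 1 came from thymus with the antibody ab109122 (its title gives 6 weeks and 15 s of sonication), and standard replicate 2 came from thymus with the home-made antibody 1583D (150 s), both with an age tag of P13. Antibody, sonication and replicate therefore cannot be told apart between these lists. The urea SATB1 lists, all with 1583D, came from thymus (P13), skin (P13) and brain (5 and 6 weeks), with 2 replicates each. These ages are those of the labels, and the study's methods give other ages for skin and brain. CTCF lists after urea purification came from thymus (title 6 weeks, tag P13) and skin (P13), 1 list each. The BUR reference map is 1 list of mouse thymus DNA fragments that bound SATB1 protein in vitro. Each list gives, for a peak, its fold enrichment over the local background at the summit, which is not scaled between lists. The number of reads behind the peaks is unknown.

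SATB1 is a nuclear protein, abundant in thymocytes, that binds base-unpairing regions (BURs), which are AT-rich stretches whose strands separate easily under strain. It is required for normal T-cell development. CTCF binds a long motif of its own and marks loop anchors and insulators. Enhancers, the distal regulatory elements of genes, carry clusters of short motifs for transcription factors, and in thymocytes these include factors of the RUNX, ETS, E-protein and TCF/LEF families.

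The sequences below, each the 200 bp around the summit of standard replicate 1 on the plus strand of NCBIM37 (mm9), show the range of these sites. T1 to T3 had the highest mean fold enrichment over both standard lists, and whether they also stand out in input libraries was not tested. The next 4 are the strongest sites in or within 50 kb of Rag1/Rag2, Cd8a, Runx3 and Bcl11b, and U1 was the strongest site that overlapped a urea SATB1 peak in both thymocyte lists. Capitals mark matches, on either strand, to the motifs for RUNX (TGTGGT), ETS (AGGAAG), E proteins (the E-boxes CAGCTG and CAGGTG) and TCF/LEF (CTTTGA), and to AGATAA, the motif of GATA proteins.
T1: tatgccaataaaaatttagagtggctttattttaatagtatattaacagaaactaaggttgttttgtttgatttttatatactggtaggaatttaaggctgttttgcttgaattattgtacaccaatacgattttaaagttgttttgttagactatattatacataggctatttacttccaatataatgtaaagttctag
T2: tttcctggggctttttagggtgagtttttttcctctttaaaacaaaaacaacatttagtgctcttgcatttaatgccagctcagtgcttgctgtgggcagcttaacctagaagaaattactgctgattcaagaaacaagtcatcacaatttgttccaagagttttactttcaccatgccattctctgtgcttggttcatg
T3: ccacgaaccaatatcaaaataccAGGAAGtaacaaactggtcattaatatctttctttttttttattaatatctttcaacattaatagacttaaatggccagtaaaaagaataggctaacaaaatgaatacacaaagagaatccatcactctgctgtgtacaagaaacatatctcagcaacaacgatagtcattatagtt
Rag1/Rag2: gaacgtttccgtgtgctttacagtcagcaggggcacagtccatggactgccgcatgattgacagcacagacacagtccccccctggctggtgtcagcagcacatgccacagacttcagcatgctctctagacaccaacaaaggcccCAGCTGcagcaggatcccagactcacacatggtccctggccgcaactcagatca
Cd8a: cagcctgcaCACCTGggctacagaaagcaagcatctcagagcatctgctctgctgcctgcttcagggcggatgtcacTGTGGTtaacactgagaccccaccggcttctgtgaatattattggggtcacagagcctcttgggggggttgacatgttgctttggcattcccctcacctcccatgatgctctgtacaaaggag
Runx3: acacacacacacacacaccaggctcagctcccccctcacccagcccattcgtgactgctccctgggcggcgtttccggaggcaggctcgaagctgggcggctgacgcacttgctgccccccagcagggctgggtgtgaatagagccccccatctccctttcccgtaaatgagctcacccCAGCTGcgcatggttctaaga
Bcl11b: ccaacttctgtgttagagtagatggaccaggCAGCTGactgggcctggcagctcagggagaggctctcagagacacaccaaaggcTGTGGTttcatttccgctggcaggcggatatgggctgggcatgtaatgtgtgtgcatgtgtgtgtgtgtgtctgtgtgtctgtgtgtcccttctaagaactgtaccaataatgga
U1: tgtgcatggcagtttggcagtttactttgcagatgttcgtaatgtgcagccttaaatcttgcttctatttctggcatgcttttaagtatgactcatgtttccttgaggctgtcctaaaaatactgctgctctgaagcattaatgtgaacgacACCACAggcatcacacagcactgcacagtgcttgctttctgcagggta
The windows lie at chr4:37208436-37208635, chr3:147526395-147526594, chr2:105708094-105708293, chr2:101448733-101448932, chr6:71319511-71319710, chr4:134636385-134636584, chr12:109231349-109231548 and chr14:79300732-79300931, in that order. The strongest sites were AT-rich, with 74.5% A and T in T1, 61% in T2 and 69.5% in T3, and held 1 motif match among them. The windows at the thymocyte genes had 42.5% A and T at Rag1/Rag2, 45.5% at Cd8a, 36.5% at Runx3 and 47.5% at Bcl11b, and each held an E-box match. A RUNX match stood in the windows at Cd8a and Bcl11b and in U1, whose window had 56.0% A and T.

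The steps of the choice removed peaks as follows. Of the 47830 peaks on the chromosomes used, 21608 (45.2%) overlapped standard replicate 2. Among these, 834 touched a thymocyte CTCF peak alone, 1018 a skin CTCF peak alone and 3752 both, against 26.2% of all peaks that touched either. Of the 16004 left, 5808 lay within 1 kb of a gene 5′ end and are called promoter sites without CTCF. The CTCF-touching peaks gave 3712 distal sites with CTCF and 1892 promoter sites with CTCF. The sites nearest to the limit on the kept side lay 1003 bp from Slfn9 (fold enrichment 4.43 and 5.02 in replicates 1 and 2), 1004 bp from Cwf19l2 (3.72 and 6.25) and 1004 bp from Gm16181 (5.38 and 5.33). Just inside 1 kb were peaks at Lpin2 (997 bp, 6.28 and 4.36), Cxcr4 (995 bp, 9.27 and 7.47) and Setd1b (994 bp, 5.27 and 5.53). Without the demand for replicate 2, 26042 peaks would have been kept. Alternative starts remain among the sites. A start of another transcript of a protein-coding gene lay within 1 kb of 885 sites (8.68%), and the 5′ end of any annotated gene within 1 kb of 433 (4.25%).

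Peak strength varied widely among the sites. The median fold enrichment was 8.25 in replicate 1 (quartiles 6.08 and 10.9, range 2.26 to 48.1) and 6.15 in replicate 2 (quartiles 5.11 and 7.84, range 2.09 to 52.1). Across sites, the fold enrichment of the replicates had a Spearman correlation of 0.635 (n = 10196 sites, which share 2 libraries). The summits of the replicates lay a median of 45 bp apart, 54.9% within 50 bp and 81.0% within 100 bp. Where more than 1 peak of replicate 2 overlapped a site, the highest fold enrichment and the nearest summit were taken. The sites were 431 bp long in the median (quartiles 326 and 566), against 653 bp for promoter sites without CTCF and 338 bp for distal sites with CTCF. The medians of fold enrichment in replicate 1 were 9.10 and 8.66 in those classes. These values come from the calls that chose the sites and are a description.

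**Figure D1:**
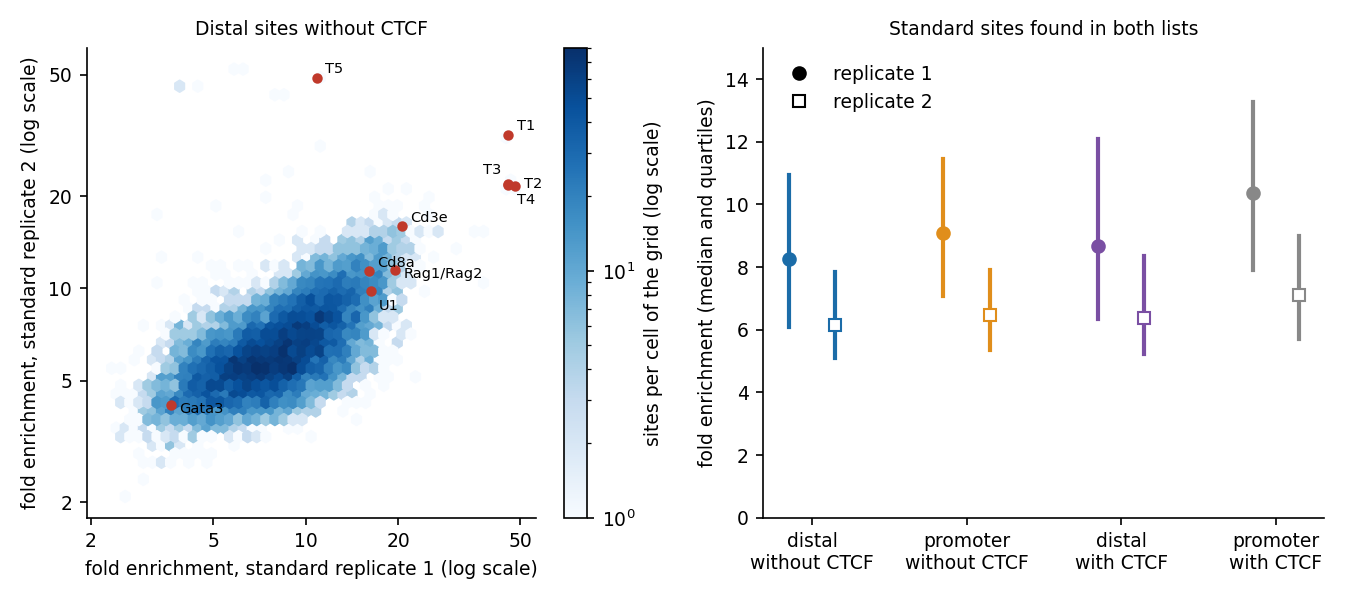
Left, fold enrichment of the 10196 distal sites without CTCF in standard replicate 1 (x axis, log scale) and replicate 2 (y axis, log scale), shaded by the number of sites, with named sites in red. Right, median and quartiles of fold enrichment for the 4 classes of standard sites in replicate 1 (circles) and replicate 2 (squares). T1 to T4 stand at 45.7 to 48.1 in replicate 1, apart from the bulk of the sites, and T5 stands out in replicate 2 alone.

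The sites at the top of the range were described one by one. T1 had fold enrichments of 45.7 and 31.8 in replicates 1 and 2, T2 of 48.1 and 21.7, T3 of 45.7 and 21.9, and T4 (chr17:19850873-19851167) of 45.7 and 21.8. These 4 peaks were 295 to 296 bp long. T5 (chr12:116610396-116610703) had 10.9 in replicate 1 and 48.9 in replicate 2, so its rank rests on replicate 2. T2, T4 and T5 were intergenic, T1 lay in an intron of a gene that is not protein-coding, and T3 in an intron of Elp4, which encodes a subunit of the Elongator complex. T1 lay 309.8 kb upstream of Lingo2 and 1888 kb from the nearest thymocyte CTCF peak. T1 and T3 overlapped a BUR, and none of the 5 overlapped a urea SATB1 peak of thymocytes. In all, 8 sites had a fold enrichment over 30 in replicate 1, and these were 296 bp long and held 69.0% A and T in the median. In replicate 2, 9 sites passed 30, which were 158 bp long and held 54% A and T in the median, and T1 alone passed it in both.

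The sites lay mainly in introns and between genes. The summit was in an intron of a protein-coding gene at 47.3% of sites and intergenic at 43.1%, while 2.27% were in a coding exon and 3.25% in an exon of a UTR. Among all peaks of standard replicate 1, 37.7% were in such an intron, 45.7% intergenic and 8.71% in an exon of a UTR. The median distance to the nearest protein-coding gene 5′ end was 28.5 kb, and 43.4% of sites were 10 to 50 kb away. Another 17.3% were 50 to 100 kb away and 15.6% 100 to 500 kb. Chromosome 11, which is gene-dense, carried the most sites per length (6.23 per Mb) and X the fewest (0.960 per Mb). Across 2649 bins of 1 Mb, the number of sites had a Spearman correlation of 0.580 with the number of protein-coding gene 5′ ends and 0.807 with thymocyte CTCF peaks. With BURs it was -0.498, and with urea SATB1 peaks of thymocytes -0.414 and -0.404. No site touches a CTCF peak, so the relation with CTCF is one of neighbourhood at the scale of 1 Mb. The median distance from a site to the nearest thymocyte CTCF peak was 21.0 kb, and 10.6% of the sites had one within 3 kb. These correlations describe bins that share base composition and gene density, and sites were absent from 39.2% of the bins.

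Few of the sites met a SATB1 peak of urea ChIP-seq. In thymocytes, 64 sites (0.628%) overlapped a urea SATB1 peak of replicate 1 and 67 (0.657%) of replicate 2, where the backgrounds over all peaks of standard replicate 1 were 0.755% and 0.767%. In skin the numbers were 34 (0.333%) and 28 (0.275%), with backgrounds of 1.55% and 1.52%. In brain they were 129 (1.27%) and 113 (1.11%), with backgrounds of 1.25% and 1.09%. The thymocyte and brain shares were near the background and the skin shares below it. The skin shares depended on the skin CTCF list. When that list was left out of the choice of sites, an alternative added after seeing the data, the mean share was 3.49% in skin, 0.704% in thymocytes and 1.33% in brain, so that skin stood highest. The mean shares were 0.642% ± 0.0208 in thymocytes, 0.304% ± 0.0416 in skin and 1.19% ± 0.111 in brain (SD, n = 2 lists each). The replicates of a tissue did not overlap those of another tissue. An exact permutation test of the spread of the tissue means over 90 arrangements gave p = 0.0667, which is the smallest p this design allows. The lists differ in size, with 10846 to 11210 peaks in skin, 38882 to 45049 in thymocytes and 109154 to 117963 in brain. With the 10846 peaks of highest −log10 q-value in each list, the means were 0.304% in thymocytes, 0.289% in skin and 0.284% in brain. The order of the tissues therefore did not hold at equal list size (exact permutation p = 0.733).

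Compared with promoter sites without CTCF, distal sites without CTCF overlapped urea SATB1 peaks more often in each of the 6 lists. The promoter sites met a urea peak at 0.155% in both thymocyte lists, 0.0344% and 0.0517% in skin, and 0.413% and 0.275% in brain. The difference was 0.53 percentage points on average (0.223 to 0.852), higher in 6 of 6 lists (exact sign-flip permutation test, two-sided, p = 0.03125, Benjamini-Hochberg adjusted 0.03125, the smallest p that 64 arrangements allow). With urea lists of equal size the mean difference was 0.261 percentage points, and with an overlap of 50% of the site or the summit inside the peak it was 0.188 or 0.242, higher in 6 of 6 lists each time. Without the skin CTCF list in the choice of sites it was 1.53, again higher in 6 of 6 lists. Compared with distal sites with CTCF, they overlapped urea peaks less often in 6 of 6 lists. Distal sites with CTCF met a urea peak at 3.64% and 3.56% in thymocytes, 13.0% and 12.9% in skin and 4.42% and 4.20% in brain. The share of sites without CTCF was lower by 6.24 percentage points on average (value -6.24, range -12.7 to -2.90, exact sign-flip permutation test, p = 0.03125, adjusted 0.03125). With either skin list left out, the mean difference was -4.96, and without the skin CTCF list in the choice it was -2.46, where the skin shares of distal sites with CTCF were 4.35% and 4.38%. The class with CTCF was made with the calls that the choice of sites used. The p-value for that class therefore describes this split and is not independent evidence of a difference. Lists of 1 tissue are replicates, so the 6 lists are not 6 independent tissues.

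**Figure D2:**
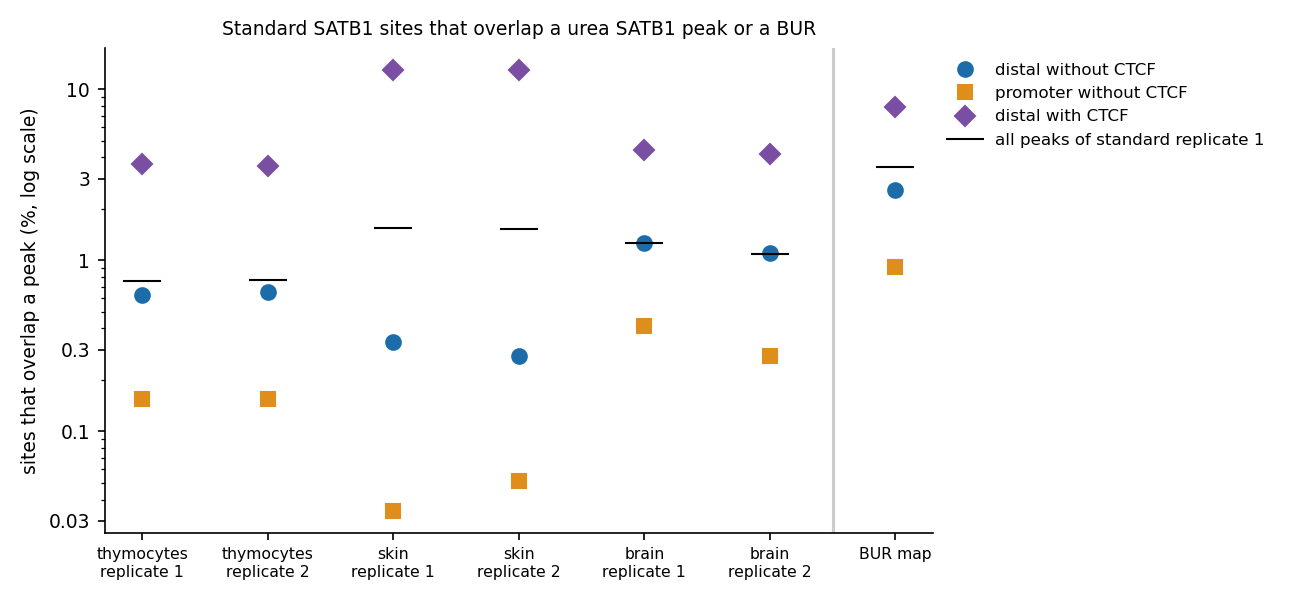
Percentage of standard SATB1 sites (y axis, log scale) that share at least 1 bp with a peak of each urea SATB1 list or of the BUR reference map, for distal sites without CTCF (circles), promoter sites without CTCF (squares), distal sites with CTCF (diamonds) and all peaks of standard replicate 1 (dashes). In each list the distal sites without CTCF stand above the promoter sites and below the distal sites with CTCF.

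The BUR reference map, of which there is 1 list and therefore no test, put the classes in the same order. A BUR overlapped 261 sites (2.56%), against a background of 3.5%, 0.913% of promoter sites without CTCF and 7.84% of distal sites with CTCF. Among the 15846 distal peaks without CTCF found in replicate 1 only, 838 (5.29%) overlapped a BUR. A share below the background was therefore not a trait of all distal peaks without CTCF. From the sites, the nearest BUR was a median of 8.62 kb away (quartiles 2.90 and 19.8 kb). Of the sites, 25.7% had one within 3 kb, near the 26.8% of all peaks of standard replicate 1. In distal peaks without CTCF found in replicate 1 only, it was 31.1%. At the summit itself, 0.942% of the sites lay in a BUR, compared with 2.14% at positions 1 to 3 kb away, a ratio of 0.440. For urea SATB1 peaks of thymocytes the ratio of summit to 1 to 3 kb was 0.512 in replicate 1 (0.186% against 0.364%) and 0.723 in replicate 2 (0.255% against 0.352%). Distal sites with CTCF had ratios of 2.31 for BURs and 5.09 and 5.22 for the urea lists. The A and T content had its low point at the same place (median 49.5% in the 200 bp around the summit and 54.0% at 900 to 1000 bp), and its part in the dip was not tested. Counted by a BUR that covers 50% of the site or holds its summit, the share on a BUR was 0.755% or 0.942%, and without the skin CTCF list in the choice of sites it was 3.43%.

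**Figure D3:**
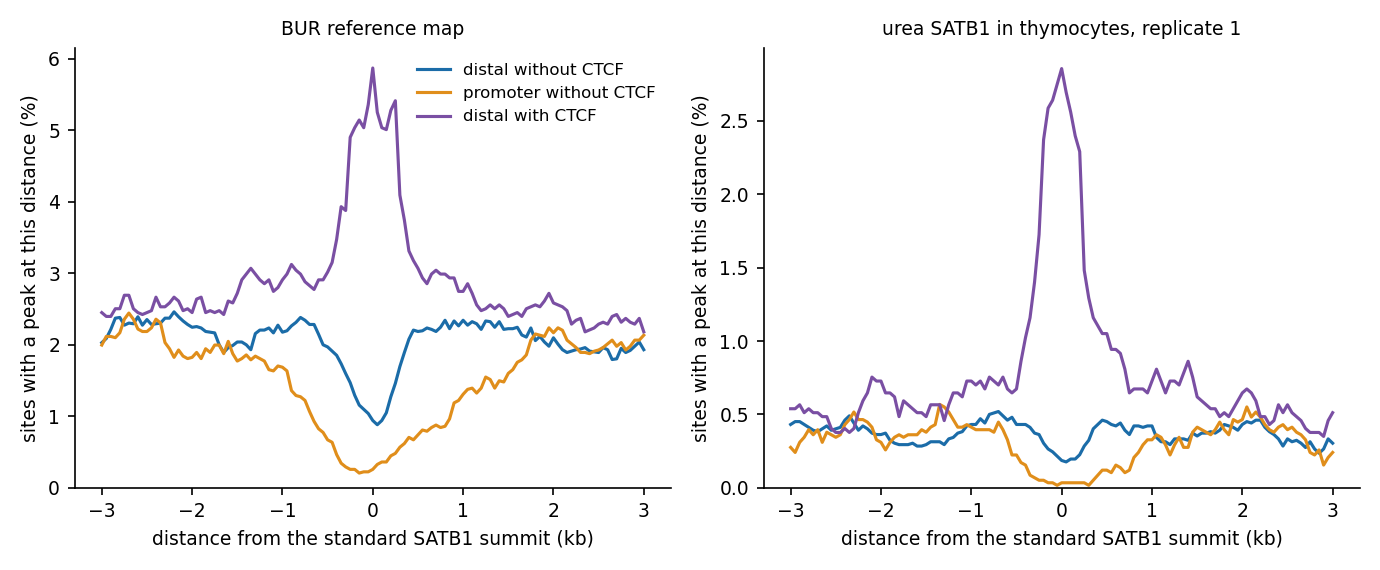
Percentage of sites (y axis) at which a position at a given distance from the standard SATB1 summit (x axis, kb) lay inside a BUR (left) or a urea SATB1 peak of thymocyte replicate 1 (right), for 3 classes of standard sites. Distal sites without CTCF show a narrow dip at the summit (0.942% for BURs), promoter sites a wider one, and distal sites with CTCF a peak.

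A small set of the sites was found by both methods. A urea SATB1 peak of both thymocyte lists overlapped 45 sites, and 84.4% of these overlapped a BUR. A peak was present in all 6 urea lists at 23 sites, and each of these 23 overlapped a BUR. The study reports that the majority of urea SATB1 peaks in each tissue lie on BURs, so a high share is not particular to these sites. Another 26 sites met a peak in both brain lists and in no thymocyte urea list, and 176 lay on a BUR with no urea SATB1 peak in any list. The 45 sites had median fold enrichments of 6.30 and 6.66 in the standard replicates, against 8.25 and 6.15 for all the sites. U1, the strongest of them, had 16.3 and 9.78 and lay in an intron of 1300010F03Rik. U2 (chr11:11421779-11422314, 14.6 and 9.26) was intergenic, 59.6 kb upstream of Zpbp, and U3 (chr6:61275864-61276667, 16.1 and 7.54) lay in an intron of Fam190a. The other end of the range was far larger, since 9851 sites (96.6%) met neither a BUR nor a urea SATB1 peak of any tissue. A high share is usual for standard peaks. Over all peaks of standard replicate 1, 3.5% overlapped a BUR and 0.755% to 1.55% a peak of a single urea list. The joint shares of this paragraph were not counted over all peaks. Seen from the urea lists, 62 of 44920 peaks of thymocyte replicate 1 (0.138%) and 67 of 38765 of replicate 2 (0.173%) lay on one of the sites.

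The sequence under the summits was GC-rich relative to its surroundings and rich in motifs of T-cell transcription factors. In the 200 bp around the summit the quartiles of A and T content were 44.5% and 53.5%. Only 0.373% of the sites had 65% or more A and T. The 45 sites shared with both urea thymocyte lists had a median of 54.5%, and promoter sites without CTCF had 34.5%. Distal peaks without CTCF found in replicate 1 only had 49.5%, the same as the sites. The median ratio of observed to expected CpG dinucleotides was 0.267 at the sites, 0.206 at 900 to 1000 bp from their summits and 0.863 at the promoter sites. No CpG was found in 7.59% of the summit windows and in 14.9% of those flanks.

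An ETS match (AGGAAG) stood in the 200 bp window of 4992 sites (49.0%), a RUNX match (TGTGGT) in 3532 (34.6%), a CAGGTG E-box in 3239 (31.8%), a CAGCTG E-box in 2853 (28.0%) and a TCF/LEF match (CTTTGA) in 2133 (20.9%). ETS proteins such as Ets1, RUNX proteins such as Runx1 and Runx3, the E proteins Tcf3 and Tcf12, and Tcf7 and Lef1 are the thymocyte factors known to bind such motifs. Among all peaks of standard replicate 1 the shares were 36.6% for ETS, 22.3% for RUNX, 23.5% and 19.04% for the E-boxes and 14.5% for TCF/LEF. Distal peaks without CTCF found in replicate 1 only came closer. They had 44.7% for ETS, 26.9% for RUNX, 24.6% and 21.2% for the E-boxes and 17.5% for TCF/LEF. In windows of equal length 800 to 1000 bp before the summits of the same sites, the shares were 23.7% for ETS, 15.1% for RUNX, 14.6% for CAGGTG, 9.72% for CAGCTG and 13.4% for TCF/LEF. The GATA motif (AGATAA) was no more frequent at the summits (10.1%) than in those flanks (10.8%), and AP-1 (TGANTCA) stood in 7.10% against 5.73%. The GC box (GGGCGG), a motif of promoters, was found in 14.0% of the sites and in 62.4% of promoter sites without CTCF. The core of the CTCF motif was found in 1.34%, compared with 32.1% of distal sites with CTCF, a contrast that follows the choice of sites. All motifs were searched on both strands. A match is a run of letters and not a measured binding event.

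Matches gathered at the summit. In the 50 bp bins next to the summit, 12.5% of the sites had a RUNX match per bin, compared with 3.89% in bins 400 to 500 bp away, a ratio of 3.23. The ratios were 3.52 for CAGCTG, 2.66 for CAGGTG, 2.56 for ETS, 1.79 for TCF/LEF, 1.32 for AP-1 and 0.966 for GATA. The GC box, which is not a motif of T-cell factors, had a ratio of 3.35, with 5.02% per bin next to the summit. At promoter sites without CTCF the ratio was 0.963 for RUNX, 1.21 for ETS, 1.57 for CAGCTG, 0.805 for CAGGTG, 0.528 for TCF/LEF and 3.44 for the GC box. RUNX, ETS and at least 1 of the E-box motifs stood together in the windows of 767 sites (7.52%), against 3.73% of all standard replicate 1 peaks and 0.843% of the flanks, and none of the 3 in 1622 (15.9%). The RUNX share was higher at stronger peaks, from 28.1% among the 2549 sites with the lowest mean fold enrichment through 32.7% and 35.6% in the next groups of that size to 42.1% among the strongest 2549. From the weakest to the strongest group, the share was 23.8% and 34.2% for CAGCTG, 29.3% and 34.3% for CAGGTG, 44.7% and 51.0% for ETS and 18.3% and 24.7% for TCF/LEF. The GC box stood in 15.0% and 12.8%. The GATA share was 9.96%, 10.0%, 9.57% and 10.7% in the same groups, and the median A and T content stayed at 49.0% to 49.5%. Peak length moved with strength too, from 314 to 516 bp. The share of sites with replicate summits within 50 bp of each other also rose, from 44.6% to 70.1%. The part of either was not tested.

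**Figure D4:**
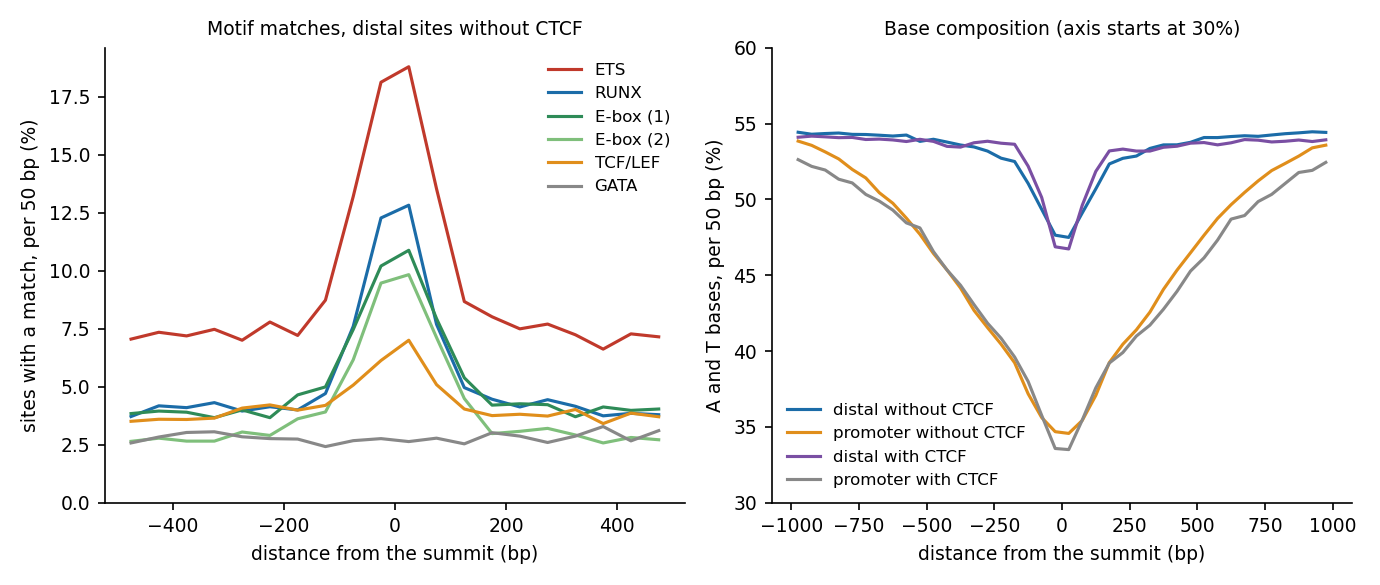
Left, percentage of distal sites without CTCF with a match to each motif in bins of 50 bp (y axis) by distance from the summit (x axis, bp). E-box (1) is CAGGTG and E-box (2) is CAGCTG. Right, A and T content in bins of 50 bp for the 4 classes, on an axis that starts at 30%. Matches for ETS, RUNX and both E-boxes are most frequent at the summit, those for GATA are not, and A and T content is lowest there, at 47.5%.

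Most of the listed genes of T-cell development had at least 1 of these sites in or near them. At least 1 site lay in the gene or within 50 kb of its ends for 9366 of 22350 protein-coding genes, a background of 41.9%. The lists named here were chosen with results of these data known, so their counts are a description without a test, and neighbouring genes such as Cd3e, Cd3d and Cd3g share sites. Longer genes have more room for sites, and the median gene length was 15.4 kb over all genes and 43.0, 26.3 and 81.8 kb over the lists of T-cell receptor signalling, lineage and transcription factor genes. Within 50 kb of the 5′ end alone, where gene length adds no room, 35.7% of all genes had a site.

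Of 20 genes of the T-cell receptor and its signalling, 19 had a site. Rasgrp1, an activator of Ras, had none. Cd28, the costimulatory receptor, had 10 sites. The kinases Fyn and Prkcq had 9 and 8, the receptor chain Cd247 had 7 and the phosphatase Ptprc 6. Cd3e and the adaptor Lcp2 had 5 each, and Cd3d, Cd3g, Zap70, Lat, Cd2, Cd5, Cd6 and Cd27 had 4 each, with 3 at Lck. The strongest site near Cd3e, in an intron of its neighbour Ube4a, had fold enrichments of 20.5 and 16.0 in replicates 1 and 2. It was the strongest of the sites chosen at single genes.

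Of 12 genes of lineage choice and coreceptors, 11 had a site, and Zbtb7b, which directs CD4 T-cell fate, had none. The neighbours Cd8a and Cd8b1, which encode the CD8 coreceptor, had 10 each. The strongest lay 3.81 kb upstream of Cd8a with 16.0 and 11.4. Tox, Il2ra and Ctla4 had 5 each, Cd4 had 4 and Runx3 had 3. The strongest site of Cd4 lay in the gene, 8.67 kb from its 5′ end, with 11.2 and 4.83, and that of Il2ra, the interleukin-2 receptor alpha chain, 6.53 kb upstream with 8.90 and 4.23. The site near Runx3, 40.1 kb upstream, had 12.7 and 10.5 and stood 0.291 kb from a BUR. At Gata3 there was 1 site, in the gene, with 3.65 and 4.15, near the low end of the range.

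Each of the 19 T-cell transcription factor genes matched in the annotation had a site. Runx1 had 12, Ets1 10, Nfatc1 9, Ikzf1 and Ikzf3 8 each, Bcl11b and Bach2 7 each, Id3 6, Tcf7, Satb1 and Foxo1 5 each, Lef1, Myb and Egr2 4 each and Tcf12 3. At Bcl11b, a factor of T-cell commitment, the strongest site lay in the gene, 10.4 kb from its 5′ end, with 14.6 and 8.05, and 0.428 kb from a BUR. At Ets1 it lay in the gene with 10.8 and 10.7. At Tcf7 it lay outside the gene, nearest to Skp1a, with 7.30 and 5.86. Satb1 itself had a site 46.1 kb upstream with 6.58 and 3.66. The recombination genes, which cut and extend antigen receptor genes, had 7 sites at Rag2, 5 at Rag1 and 4 at Dntt. The strongest at Rag1/Rag2 lay 16.0 kb upstream of Rag2 in an intron of B230118H07Rik, with 19.6 and 11.5, and 2.42 kb from a BUR.

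In the comparison lists the shares were lower than in the lists of thymocyte genes. They were above the background of 41.9% for housekeeping (64.3%), B-cell and myeloid (50%) and neuronal genes (46.7%). Only the epidermal genes were below it (14.3%). Of 14 B-cell and myeloid genes 7 had a site, with 6 at Itgam, 5 at Mpo and 3 each at Cd79b and Ebf1. Of 15 neuronal genes 7 had one, with 4 at Camk2a and 3 at Rbfox3. Of 14 housekeeping genes 9 had one, with 3 each at Actb and Rplp0. Of 14 epidermal genes, only Krt10 and Grhl3 had a site, 1 each. By the 5′ end alone, the counts were 19 of 20 for receptor signalling, 10 of 12 for lineage, 18 of 19 for transcription factors, 3 of 3 for recombination, 7 of 14 for B-cell and myeloid, 5 of 15 for neuronal, 8 of 14 for housekeeping and 2 of 14 for epidermal genes.

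**Figure D5:**
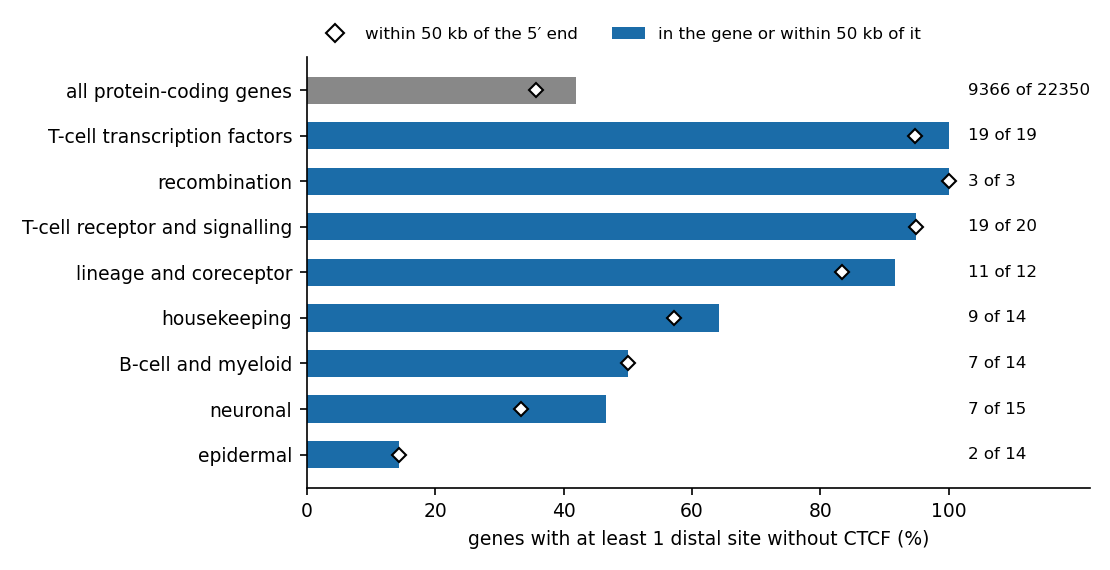
Percentage of genes (x axis) with at least 1 distal standard SATB1 site without CTCF in the gene or within 50 kb of it (bars) or within 50 kb of its 5′ end (diamonds), for all protein-coding genes (grey) and 8 gene lists, with counts at the right. The 4 lists of thymocyte genes stand at 91.7% to 100% and the background at 41.9%.

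Some places held many of the sites. By nearest 5′ end, 5074 protein-coding genes had at least 1 and 73 genes had 10 or more. The gene 3110018I06Rik on chromosome 12 had 26, up to 562 kb away, and Ighv1-73, a variable segment of the immunoglobulin heavy chain, had 22. Satb1 had 19, of which 17 lay upstream of the gene, up to 445 kb away, with median fold enrichments of 7.01 and 4.99. B230359F08Rik on chromosome 14 and Lpp had 17 each, Ets1 and Runx1 16 each, and A130050O07Rik, Klf3, Sipa1l1 and Slc7a11 15 each. When sites within 10 kb of each other were joined, 8110 stretches resulted, of which 6566 held 1 site and 26 held 5 or more. The stretches with the most sites were chr12:108357323-108398846, nearest to 3110018I06Rik, and chr13:112758030-112793447, nearest to the kinase gene Map3k1, with 8 sites each. Another 6 stretches had 7 sites each, nearest to Gm16382, Sema4d, Il6st, Ifnar1, Vps13d and Fli1. Sites in stretches of 5 or more were weaker than single ones, with median fold enrichments of 6.09 against 8.84 in replicate 1 and 5.15 against 6.43 in replicate 2.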

How the data were processed

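Peak lists of 11 samples were analysed, out of 38 samples in the series. The other samples, among them Satb1-/- chromatin, inputs, Hi-C, 4C-seq and a further thymocyte CTCF library, were not analysed here. The authors mapped reads with Bowtie2 2.3.1 to mm9 and ran MACS2 2.2.7 on each sample (q-value 0.01). The deposited fold enrichment is the ratio of signal to local background at the summit within 1 sample. The deposited −log10 p-values and −log10 q-values belong to each list, and the authors' display score was not used. No counts or depths are given, so no interval for counting error is printed.

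The sites and gene lists were chosen with earlier results of these data known. The labels do not say which replicates came from separate animals, and the study states that replicates are from different animals. In each tissue, both urea SATB1 lists share a code number in their titles. The titles differ in antibody amount for thymocytes, sonication time for skin and number of cycles for brain. Whether the lists of a tissue are independent preparations is therefore unknown. P-values measure the spread between these lists, with each list as a unit. No test with tissues as units was run for the differences between classes. Replicate numbers follow the labels. The same numbers in different tissues did not mark related samples (correlations of deviations -0.0551, -0.0585 and 0.0438).

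Python 3.11.15 with numpy 2.4.6, scipy 1.17.1 and matplotlib 3.10.9 served for overlaps (at least 1 bp), distances, profiles, exact permutation tests and plots. The overlap, class, distance and motif searches were tested on simulated data. Gene starts came from GENCODE vM1 and sequence from NCBIM37. Of the T-cell transcription factors, Gfi1 was not matched by symbol. Regions named were the 5 strongest by mean fold enrichment, the strongest at 12 chosen loci (Rag1 and Rag2 as 1 locus), the 3 strongest in both urea thymocyte lists, and 3 on each side of the 1 kb limit. Genes named were the 10 with most sites by nearest 5′ end (with ties), those of the 5 stretches with most sites (with ties), and list genes with 3 or more sites. The alternatives tried were peaks of −log10 q 5 or more, an overlap of 50% of the length, the summit inside, a 5 kb limit, transcript starts, replicate 2 as the base list, urea lists of equal size and a replicate block. Each urea SATB1 list was also left out in turn for the shares on urea peaks. Each standard list was left out in turn for the number of sites only. Leaving out each CTCF list, other sequence windows and the 5′ end count were added after seeing the data.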

Additional observations from a re-analysis of the deposited data

How the results depend on the processing

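The number of sites was 8067 to 10548 when an overlap of 50% was asked for, a −log10 q of at least 5, a limit of 5 kb, transcript starts, or standard replicate 2 as the base. With 1 standard list in place of both it ranged from 13422 without standard replicate 1 to 26042 without standard replicate 2. The share of sites on a BUR was 2.56%. It was 0.755% when the BUR had to cover 50% of the site, 0.942% when it had to hold the summit and 2.10% with standard replicate 2 as the base, where the cause was not tested. With each CTCF list left out of the choice of sites, 10597 sites resulted without the thymocyte list and 10874 without the skin list, and the share on a BUR was 2.62% and 3.43%. The spread between tissues of the share on a urea peak was 0.883 percentage points and turned in order with urea lists of equal size (0.0196, exact permutation p = 0.733). With 50% overlap it was 0.123 and with the summit inside 0.162. With the replicate block it was 0.883 (exact permutation p = 0.167, the smallest that 36 arrangements allow), and with each urea list left out it ranged from 0.804 to 0.961. Without the skin CTCF list it was 2.78 with skin highest in place of brain (exact permutation p = 0.0667), and without the thymocyte CTCF list 0.882.

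The differences from the other classes kept their direction and an exact p of 0.03125 under each alternative that kept all 6 urea lists. For distal sites with CTCF this p describes a split made by the CTCF calls that chose the sites. With both CTCF lists kept, the difference from promoter sites ranged from 0.188 to 0.561 percentage points there and that from distal sites with CTCF from -6.67 to -4.88. Without the thymocyte CTCF list they were 0.546 and -6.95, and without the skin CTCF list 1.53 and -2.46. With both CTCF lists kept, the difference from distal sites with CTCF was -5.02 after removal of the 48 distal CTCF sites where all 11 lists have a peak. With 1 urea list left out, 5 lists remain and the smallest exact p is 0.0625. The differences then ranged from 0.466 to 0.592 and from -6.91 to -4.96. With equal list sizes, the difference from promoter sites was 0.261, and with 50% overlap 0.188. The RUNX share of the sites was 33.4% around the summits of replicate 2 and 35.8% beyond 5 kb, and the ETS share 46.0% and 49.9%. In 100 bp windows they were 22.6% and 32.3%. The size of a peak list limits each share, since the number of reads behind the lists is unknown.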

Other observations

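Short words were ranked without regard to the fixed motifs. Of 2080 words of 6 letters, with both strands joined, 189 were found in at least 2 times as many summit windows of the sites as in the windows 800 to 1000 bp before them, and 175 of these held CG. The first was CGGCGC (4.16% against 0.873%, ratio 4.76), and the first 12 each held CG. Over all words CAGCTG was number 63, GGAAGT number 68 and GTGGTT number 85. Among the 1476 words without CG, the first was CAGCTG (28.0% against 9.72%, ratio 2.88), the second GGAAGT (32.5% against 11.7%, ratio 2.79), an ETS-type word, and the third GTGGTT (28.3% against 10.8%, ratio 2.62), a RUNX-type word, followed by TGTGGT. The words least frequent at the summits relative to the flanks were of A and T alone, with TATATA in 1.42% of the windows and 6.36% of the flanks.

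The word GGATGTGGT, in which an ETS core and a RUNX core are joined, was looked at after the ranking had been seen. It stood in 299 of the 10196 sites (2.93%) and in 24 of their flanks (0.235%). It was present in 1.33% of all peaks of standard replicate 1, in 1.65% of distal peaks without CTCF found in replicate 1 only, in 0.396% of promoter sites without CTCF and in 0.62% of distal sites with CTCF. It stood in 8 of the 261 sites on a BUR (3.07%).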
